A study of Mus musculus with 6 samples.

Results

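The genes described here build sterols and fatty acids under the control of the SREBP transcription factors. They were chosen by name from a list of 39 symbols, of which 21 belong to the sterol arm and 18 to the fatty acid arm. Every one of the 39 symbols had a row among the 46095 rows of the deposited count table. A total of 38 members were tested, and 1 fatty acid member, Pnpla3, had too few counts. RNA was sequenced from mouse kidney on a C57BL/6 background, in 3 samples labelled DHT and 3 labelled control. DHT is dihydrotestosterone, an androgen that cannot be converted to oestrogen and is given to mice to model polycystic ovary syndrome (PCOS). The strain label reads PCOS mouse in the DHT and the control group alike, and only the treatment label separates them. The sources used here do not give the dose, duration, age or collection time. They do not state that the 3 samples of a group came from different animals either, so the p-values cover the spread between samples alone, which may be technical.

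SREBPs are made as membrane proteins of the endoplasmic reticulum. When sterols are scarce they are carried to the Golgi and cut, and the freed part enters the nucleus and switches on target genes. Srebf2 mainly drives the enzymes that make cholesterol from acetyl-CoA by way of mevalonate and lanosterol, and Srebf1 mainly drives those that make, elongate and desaturate fatty acids. In the kidney the proximal tubule burns fatty acids for most of its energy, and it also makes and stores lipid.

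Library totals ran from 15.05 to 19.33 in units of 1e6 counts. Values are in CPM, counts per 1e6 counts of a library after TMM scaling, and fold changes are DHT against control. Defining kidney genes were abundant in every library: summed over 6 proximal tubule markers, the level was 7704 to 9889 CPM in DHT and 8439 to 10994 CPM in control. In whole kidney, fewer cells of a type and less RNA per cell cannot be told apart. DHT replicate 2 held the most macrophage RNA, 369 CPM over 8 markers against 105 to 242 CPM elsewhere, and the most red cell RNA, 70.3 CPM over 5 markers against 2.89 to 37.5 CPM elsewhere. It also had the most endothelial RNA, 397 CPM over 3 markers against 204 to 250.1 CPM elsewhere. Control replicate 3 held the most RNA of the loop of Henle, 10693 CPM over 2 markers against 3695 to 6096 CPM elsewhere. The collecting duct marker Aqp2 was also highest there, at 335 CPM against 87.2 to 124 CPM elsewhere. The sum over 3 distal tubule and collecting duct markers was not, at 1787 CPM against 1710 to 2834 CPM elsewhere.

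No member of either arm passed edgeR's quasi-likelihood test at a Benjamini-Hochberg adjusted p of 0.05. Over all 15367 genes tested, 2.84% passed in either direction, 1.38% higher in DHT and 1.46% lower. Missing the threshold is no evidence that levels were equal. At an unadjusted p under 0.05, 2 sterol members were higher in DHT (Acat2 and Hmgcs1) and 4 lower (Srebf2, Fdps, Lss and Msmo1). In the fatty acid arm 2 were higher (Acss2 and Me1) and 7 lower (Mlxipl, Acacb, Elovl5, Elovl6, Scd1, Fads1 and Fads2). The same criterion took 12% of all genes in each direction and 23.9% in all. With DESeq2 the adjusted threshold was passed by 1 sterol member higher and 1 lower, and by 2 fatty acid members higher and 5 lower, against 10.8% of all genes. Over the other alternatives that kept every library, the share of all genes called was 2.88% with median-ratio size factors, 2.21% with total counts, 3.35% with no low-count filter, 3.17% with a filter of 1 CPM in 3 libraries, 2.09% with limma-voom, 3.05% without the robust step and 0.553% with a replicate block.

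The DHT and control libraries did not overlap for 5 of 21 sterol members, 1 higher and 4 lower, or 23.8%. They did not overlap for 9 of 17 fatty acid members, 3 higher and 6 lower, or 52.9%. Among all genes tested the share was 29.8%, 14.8% higher and 15% lower. The sterol share was near that of all genes and the fatty acid share was above it. Gaps between the groups were narrow for Acly, Elovl1, Elovl5 and Acacb. The median log2 fold change was -0.11 in the sterol arm and -0.36 in the fatty acid arm, against 0.003 over all genes, a difference of 0.25 between the arms. It was below 0 for 15 of 21 sterol members and 13 of 17 fatty acid members, against 49.7% of all genes. These are descriptions, since members of a pathway are not replicates of a condition.

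Library by library, the median fatty acid member lay 0.36, 0.33 and 0.31 log2 units under its control mean (-0.36, -0.33 and -0.31) in DHT replicates 1, 2 and 3. The same median was -0.10, 0.20 and -0.05 in control replicates 1, 2 and 3, so the groups did not overlap. Since the control mean is the reference, the control values scatter around it by construction. In the sterol arm the median was -0.10, -0.16 and 0.03 in DHT and -0.12, 0.20 and -0.05 in control, and the groups overlapped. Control replicate 2 was the highest of the 6 libraries for 11 of 21 sterol members and 11 of 17 fatty acid members.

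**Figure D1:**
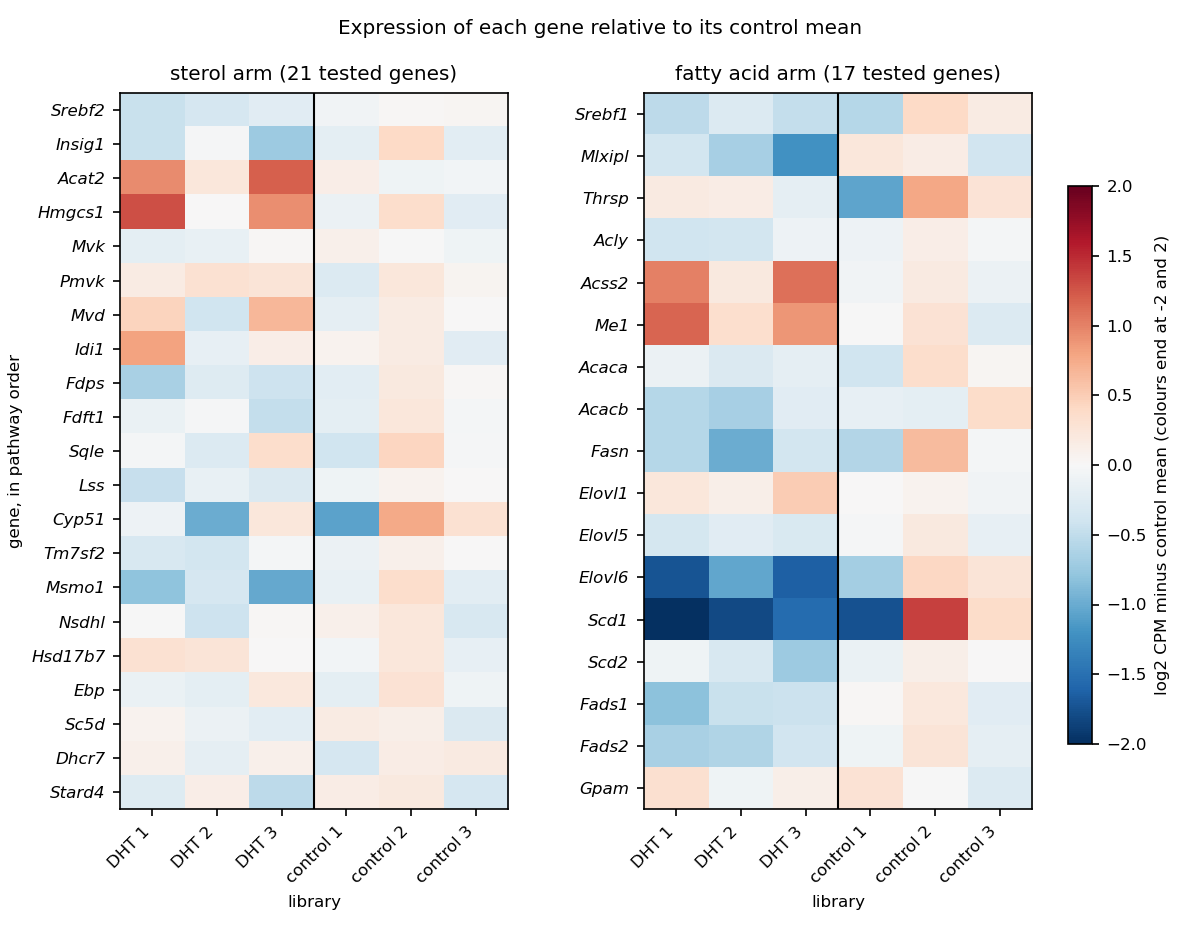
Each row is a tested gene and each column a library; colour is log2 CPM minus the gene's mean over the 3 controls, and colours end at -2 and 2. Acat2, Hmgcs1, Acss2 and Me1 are red in DHT replicates 1 and 3 and pale in DHT replicate 2, while Elovl6 and Scd1 are blue in all 3 DHT libraries; Scd1 is blue in control replicate 1 as well.

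Promoters of 17 sterol members and 15 fatty acid members were in the RefSeq table (build GRCm38.p6), in windows from 250 bases before to 50 after an annotated start. The windows, 20 and 21 in number, were searched on both strands for TCACNCCAC, a core of the sterol regulatory element that SREBPs bind, for CCAAT, the box of their partner NF-Y, and for the palindrome CACGTG, an E-box. CCAAT was in 80% of sterol windows and 61.9% of fatty acid windows, against 37.4% of all 32851 windows. CACGTG was in 20% and 9.52%, against 7.15%, and TCACNCCAC in 5% and 4.76%, against 1.24%. A match is a description of letters, and no match says only that these letters are not in this window. The 4 stretches printed next stand for a member that was higher in 2 of 3 DHT libraries (Hmgcs1) and for members with lower means in DHT, an enzyme of chain synthesis (Fasn), a transcription factor (Mlxipl) and the elongase closest to the threshold (Elovl6). Capitals mark matches on either strand.

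Hmgcs1, chr13:119690101-119690350, + strand, 250 bases before the start: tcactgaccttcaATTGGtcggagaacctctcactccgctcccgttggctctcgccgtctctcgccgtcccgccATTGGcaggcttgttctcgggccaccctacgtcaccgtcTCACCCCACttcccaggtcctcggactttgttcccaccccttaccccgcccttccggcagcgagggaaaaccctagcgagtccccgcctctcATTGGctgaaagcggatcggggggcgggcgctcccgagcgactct

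Fasn, chr11:120824548-120824797, - strand, 250 bases before the start: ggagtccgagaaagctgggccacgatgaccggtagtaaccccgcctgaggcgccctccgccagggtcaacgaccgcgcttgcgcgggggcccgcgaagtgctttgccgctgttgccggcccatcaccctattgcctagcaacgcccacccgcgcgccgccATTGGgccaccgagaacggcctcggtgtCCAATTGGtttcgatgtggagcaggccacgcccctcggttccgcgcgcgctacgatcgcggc

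Mlxipl, chr5:135089640-135089889, + strand, 250 bases before the start: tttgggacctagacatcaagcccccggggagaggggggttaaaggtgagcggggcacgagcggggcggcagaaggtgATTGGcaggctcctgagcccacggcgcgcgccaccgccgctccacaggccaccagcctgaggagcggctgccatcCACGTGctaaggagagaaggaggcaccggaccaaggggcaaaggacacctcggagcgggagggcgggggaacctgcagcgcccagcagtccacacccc

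Elovl6, chr3:129532136-129532335, + strand, 250 to 51 bases before the start: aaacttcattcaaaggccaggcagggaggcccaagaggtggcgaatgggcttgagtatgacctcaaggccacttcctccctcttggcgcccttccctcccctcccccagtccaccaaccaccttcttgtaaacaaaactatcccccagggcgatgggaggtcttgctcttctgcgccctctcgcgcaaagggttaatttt

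The Hmgcs1 stretch held TCACNCCAC from 137 bases before the start, with CCAAT boxes (read ATTGG on this strand) from 237, 176 and 45 bases before it. The Fasn stretch held a CCAAT box 90 bases before the start and an overlapping pair at 62 and 59, and no TCACNCCAC or CACGTG. The Mlxipl stretch held a CCAAT box and, 98 bases before the start, an E-box, while TCACNCCAC was found in a second Mlxipl window. The Elovl6 window held no match to the 3 motifs, and part of the printed stretch is exon of an antisense RNA, Gm35986.

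The transcription factor gene of the sterol arm, Srebf2 (chromosome 15, 82147181 to 82205379, GRCm38), was lower in every DHT library than in any control. Its level was 93.0, 100.3 and 109 CPM in DHT replicates 1, 2 and 3 and 121, 130 and 131 CPM in control replicates 1, 2 and 3. The groups were close but did not overlap, with a log2 fold change of -0.34 ± 0.11 (SE; edgeR adjusted p = 0.122). Insig1, which holds SREBPs in the endoplasmic reticulum when sterols are plentiful and is itself an SREBP target, was at 38.1, 51.0 and 31.1 CPM in DHT and 45.3, 68.5 and 44.9 CPM in control. The Insig1 groups overlapped through DHT replicate 2 (log2 fold change -0.40 ± 0.23, edgeR adjusted p = 0.315). For Insig1 it was -0.17 when control replicate 2 was left out and -0.62 when DHT replicate 2 was.

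The first steps of sterol synthesis held the members with the highest ratios. Acat2 (chromosome 17, 12942890 to 12960747) encodes the cytosolic thiolase that joins acetyl-CoA units. It was at 124, 75.2 and 148 CPM in DHT and 70.3, 60.7 and 62.0 CPM in control. DHT replicate 2 lay just above the highest control and the other DHT libraries well above it, and the means were 116 ± 37.1 and 64.4 ± 5.20 CPM (SD, n = 3 each). The log2 fold change was 0.85 ± 0.23 (edgeR adjusted p = 0.0773). Acat3, whose transcript is 97.7% identical to that of Acat2 over 65.6% of its length, had 836, 379 and 847 counts in DHT and 221, 252 and 242 in control, so reads of Acat2 and Acat3 are uncertain.

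Hmgcs1 (chromosome 13, 119690379 to 119708260) encodes cytosolic HMG-CoA synthase, which adds the next acetyl-CoA. Its level was 1064, 438 and 824 CPM in DHT and 398, 555 and 369 CPM in control. DHT replicates 1 and 3 were above all controls, while DHT replicate 2 lay inside the control range. The log2 fold change was 0.81 ± 0.32 (edgeR adjusted p = 0.170). Without DHT replicate 2 both genes passed, Acat2 at 1.07 (edgeR adjusted p = 0.00424) and Hmgcs1 at 1.09 (adjusted p = 0.0246), where 7.76% of all genes passed. Without DHT replicate 1 the log2 fold change of Hmgcs1 was 0.52 (edgeR adjusted p = 0.399). Whether the macrophage and red cell RNA of DHT replicate 2, given above, bears on these values was not tested.

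The later mevalonate enzymes differed less between groups. Mvd, which makes isopentenyl diphosphate, was at 49.4, 27.4 and 57.2 CPM in DHT and 32.03, 40.6 and 36.4 CPM in control. Like Hmgcs1, it was high in DHT replicates 1 and 3 and not in DHT replicate 2 (log2 fold change 0.30 ± 0.25). The value for Mvd was 0.079 without DHT replicate 3 and 0.54 without DHT replicate 2. Idi1, the isomerase that follows, was at 19.7, 10.02 and 12.3 CPM in DHT and 11.8, 12.6 and 9.55 CPM in control. Its ratio rests on DHT replicate 1, without which the log2 fold change of Idi1 was -0.01. The kinase Mvk was at 11.6, 12.02 and 13.6 CPM in DHT and 14.4, 13.2 and 12.6 CPM in control. Phosphomevalonate kinase, Pmvk, was at 16.0, 17.6 and 17.0 CPM in DHT and 11.7, 16.6 and 14.8 CPM in control. The groups overlapped for Mvd, Idi1, Mvk and Pmvk.

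Fdps, which makes farnesyl diphosphate for sterols and for protein prenylation, went the other way, at 19.5, 25.7 and 23.0 CPM in DHT and 26.4, 35.2 and 31.1 CPM in control. The groups did not overlap, though DHT replicate 2 and control replicate 1 nearly met (log2 fold change -0.44 ± 0.15, edgeR adjusted p = 0.129). Fdps has a processed pseudogene, Gm3571, that is 98.9% identical over 76.9% of the transcript and held 273 counts over the 6 libraries. Gm43738, a protein-coding model on the same strand with no row in the counts, shares 26.7% of the exonic bases of Fdps. The value of Fdps is uncertain for both reasons.

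The enzymes that make squalene and close the sterol rings differed from each other in how they separated the groups. Fdft1, squalene synthase, was at 38.5, 41.8 and 30.6 CPM in DHT and 37.1, 49.8 and 41.4 CPM in control. An 18.3% share of its exonic bases lies opposite Ctsb, which had 74002 counts, so Fdft1 reads are uncertain where strand was not used. Sqle, squalene epoxidase and a rate-limiting step of the pathway, was at 67.7, 57.5 and 89.1 CPM in DHT and 52.8, 93.8 and 68.4 CPM in control, with a log2 fold change of -0.01 ± 0.23 whose sign varied with the fit. Lss, lanosterol synthase, was lower in DHT without overlap, at 22.4, 27.7 and 25.3 CPM against 29.1, 32.5 and 31.1 CPM. The Lss log2 fold change was -0.30 ± 0.12 (edgeR adjusted p = 0.189).

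Of the 8 enzymes from lanosterol to cholesterol, 7 had a log2 fold change below 0. Msmo1 (chromosome 8, 64718139 to 64733792), a monooxygenase that removes methyl groups from the sterol ring, had the lowest. It was at 31.7, 44.1 and 27.3 CPM in DHT and 50.4, 71.0 and 48.0 CPM in control. The groups did not overlap, with DHT replicate 2 nearest the controls (log2 fold change -0.72 ± 0.21, edgeR adjusted p = 0.0988). Without DHT replicate 2, Msmo1 passed at -0.94 (edgeR adjusted p = 0.0270).

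Cyp51, lanosterol demethylase, varied more between controls than between groups. It was at 266, 143 and 332 CPM in DHT and 135, 483 and 351 CPM in control, a 3.57-fold range among controls. The lowest value of each group, in DHT replicate 2 and control replicate 1, was near the other. The log2 fold change of Cyp51 was -0.39 ± 0.50, and it was 0.02 without control replicate 2.

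The remaining sterol enzymes had overlapping groups. The reductase Tm7sf2 was at 13.03 to 16.3 CPM in DHT and 15.5 to 18.1 CPM in control, with medians of 13.4 and 17.0 CPM. The dehydrogenase Nsdhl was at 55.1 to 75.2 CPM in DHT and 59.1 to 85.9 CPM in control. Its partner in removing methyl groups, Hsd17b7, was at 29.4 to 36.4 CPM in DHT and 26.1 to 34.3 CPM in control, and was the enzyme of this stretch with a positive log2 fold change (0.19 ± 0.14). The isomerase Ebp was at 73.5 to 97.4 CPM in DHT and 73.5 to 103 CPM in control, and the desaturase Sc5d at 52.2 to 63.1 and 49.5 to 67.8 CPM. Dhcr7, the last reductase to cholesterol, was at 22.1 to 27.0 CPM in DHT and 19.9 to 28.6 CPM in control. Stard4, a carrier of sterol between membranes, was at 85.1 to 133 CPM in DHT and 96.4 to 139 CPM in control. For these genes the log2 fold change lay between -0.24 (Tm7sf2) and 0.19 (Hsd17b7). Leaving out 1 library moved Hsd17b7 between 0.099 and 0.31, Stard4 between -0.41 and -0.073, Nsdhl between -0.28 and -0.012 and Sc5d between -0.23 and -0.015.

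**Figure D2:**
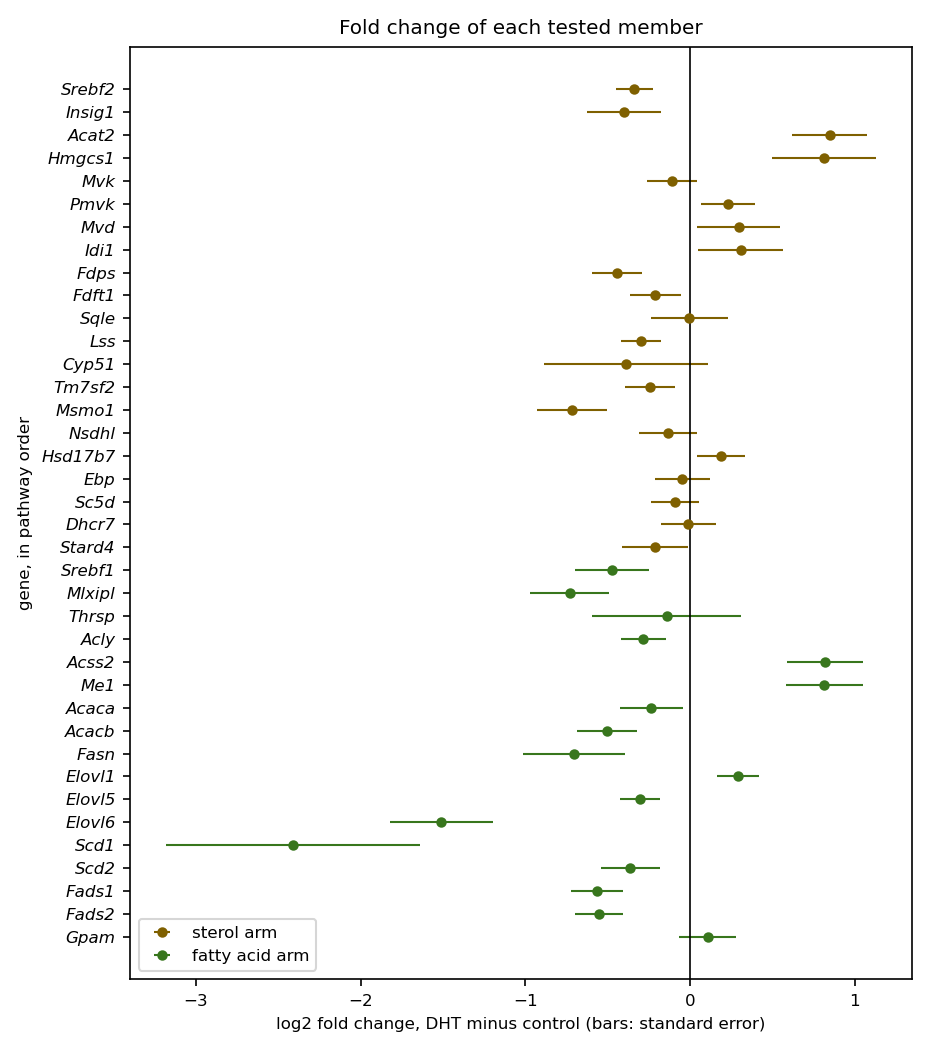
Points are log2 fold changes, DHT minus control, of the 38 tested members in pathway order; bars are standard errors. The 4 points near 0.8 are Acat2, Hmgcs1, Acss2 and Me1, and the lowest are Elovl6 at -1.51 and Scd1 at -2.41, the latter with the widest bar of the fatty acid arm.

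The regulators of the fatty acid arm had log2 fold changes below 0. Srebf1 (chromosome 11, 60199089 to 60222581) was at 47.2, 55.7 and 48.5 CPM in DHT and 45.7, 89.02 and 75.8 CPM in control. Control replicate 1 lay under all DHT libraries and the other controls above them (log2 fold change -0.48 ± 0.23, edgeR adjusted p = 0.241). Without control replicate 1, Srebf1 passed at -0.71 (edgeR adjusted p = 0.0459), where 2.32% of all genes passed, and without control replicate 2 it was -0.27 (adjusted p = 0.548). Mlxipl, the carbohydrate-responsive factor ChREBP whose upstream stretch is printed above, was at 127, 103 and 70.5 CPM in DHT and 191, 182 and 125 CPM in control. The Mlxipl groups met at DHT replicate 1 and control replicate 3, which differed by under 2 CPM (log2 fold change -0.73 ± 0.24, edgeR adjusted p = 0.121). Thrsp, a nuclear protein that promotes lipogenesis, was low throughout, at 2.14 to 2.76 CPM in DHT and 1.11 to 4.25 CPM in control.

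Of the genes that supply acetyl-CoA and NADPH, 2 were higher in DHT. Acss2 (chromosome 2, 155517948 to 155585724), which makes acetyl-CoA from acetate, was at 306, 175 and 327 CPM in DHT and 145, 172 and 140.3 CPM in control. DHT replicate 2 lay just above control replicate 2, and the other DHT libraries well above it, with means of 269 ± 82.4 and 153 ± 17.1 CPM (SD, n = 3 each). The log2 fold change of Acss2 was 0.82 ± 0.23 (edgeR adjusted p = 0.0852). Gss, a glutathione enzyme gene on the opposite strand that shares 3.89% of the exonic bases of Acss2, had 6195, 3319 and 7055 counts in DHT and 1945, 3898 and 3637 in control. Whether reads of Gss enter the Acss2 count was not tested.

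Me1 (chromosome 9, 86581371 to 86695953), malic enzyme, yields NADPH for chain building. It was at 625, 349.8 and 509.8 CPM in DHT and 276, 338 and 229 CPM in control. As with Acss2, DHT replicate 2 was close to the highest control (log2 fold change 0.82 ± 0.23, edgeR adjusted p = 0.0876). Without DHT replicate 2, Acss2 passed at 1.04 (edgeR adjusted p = 0.00619) and Me1 at 1.005 (adjusted p = 0.0219). Acly, which makes acetyl-CoA from citrate, was lower in DHT without overlap, at 169, 173 and 208.0 CPM against 208.1, 243 and 217 CPM. DHT replicate 3 and control replicate 1 differed there by under 1 CPM (log2 fold change -0.28 ± 0.14, edgeR adjusted p = 0.246).

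**Figure D3:**
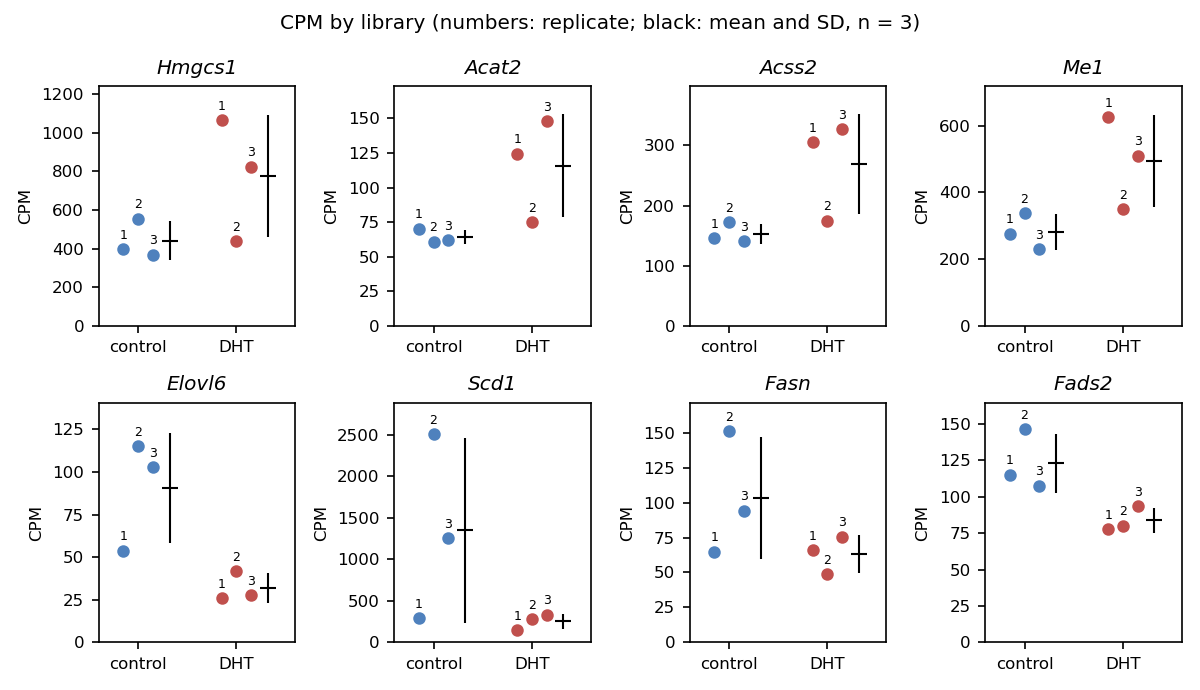
CPM of 8 members by library; numbers beside points give the replicate, and black marks are the mean and SD over 3 libraries. In the upper row DHT replicate 2 sits near the controls; in the lower row control replicate 1 sits nearer the DHT libraries than the other controls do for Elovl6, Scd1 and Fasn, but not for Fads2.

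The enzymes of chain synthesis had log2 fold changes below 0. Fasn, fatty acid synthase, was at 65.8, 48.8 and 75.6 CPM in DHT and 64.7, 151 and 94.2 CPM in control. Control replicate 1 lay inside the DHT range, and the log2 fold change of -0.70 ± 0.31 (edgeR adjusted p = 0.219) was -0.33 without control replicate 2 and -0.96 without control replicate 1. Acaca, the carboxylase that makes malonyl-CoA for this step, was at 18.1 to 20.4 CPM in DHT and 16.8 to 28.4 CPM in control. A pseudogene, Gm5182, is 99.2% identical over 64.3% of the Acaca transcript and held 300 counts, so Acaca is uncertain. Acacb, the carboxylase at the mitochondrial surface whose product restrains fatty acid import, was lower in DHT without overlap, at 46.3, 43.4 and 58.6 CPM against 61.4, 60.1 and 88.6 CPM (log2 fold change -0.50 ± 0.18, edgeR adjusted p = 0.144). Without control replicate 3 the value for Acacb was -0.30 (adjusted p = 0.294).

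The elongases included members on either side of 0. Elovl6 (chromosome 3, 129532355 to 129638495), which lengthens palmitate to stearate, was at 25.9, 41.9 and 27.6 CPM in DHT and 53.7, 115 and 103 CPM in control. The groups did not overlap, and control replicate 1 lay closer to DHT replicate 2 than to the other controls. The means were 31.8 ± 8.80 and 90.5 ± 32.4 CPM (SD, n = 3 each), with a log2 fold change of -1.51 ± 0.31 that narrowly missed the threshold (edgeR adjusted p = 0.0527). Elovl6 passed with DESeq2 (adjusted p = 3.37e-05) and, in edgeR, without the robust step (adjusted p = 0.0409). It also passed without control replicate 1 (-1.78, adjusted p = 0.0108) or DHT replicate 2 (-1.77, adjusted p = 0.0329). The highest adjusted p over the 14 alternatives was 0.168, without DHT replicate 3.

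Elovl5, which lengthens polyunsaturated fatty acids, was at 62.2, 67.5 and 63.9 CPM in DHT and 77.7, 90.5 and 70.3 CPM in control. The groups did not overlap, by a narrow margin (log2 fold change -0.30 ± 0.12, edgeR adjusted p = 0.179), and the value for Elovl5 was -0.20 without control replicate 2. Elovl1, which makes very long saturated chains for sphingolipids, was at 104, 96.1 and 125 CPM in DHT and 88.5, 93.0 and 84.1 CPM in control. It was the elongase with a positive log2 fold change, 0.29 ± 0.13 (edgeR adjusted p = 0.210), again without overlap, and that of Elovl1 without DHT replicate 3 was 0.18.

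Scd1 (chromosome 19, 44394455 to 44407879), which makes oleate and palmitoleate from saturated chains, had the lowest fold change among the tested members, and the widest spread between controls among them. It was at 150.2, 277 and 332 CPM in DHT and 288, 2506 and 1251 CPM in control. Control replicate 1 lay inside the DHT range, so the groups overlapped, and the controls spanned 8.70-fold against 2.21-fold in DHT. The means were 253 ± 93.3 and 1348 ± 1112 CPM (SD, n = 3 each), with a log2 fold change of -2.41 ± 0.77 (edgeR adjusted p = 0.133). It was -2.90 without control replicate 1 (edgeR adjusted p = 0.0253) and -1.60 without control replicate 2 (adjusted p = 0.286).

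The neighbouring gene Scd2, a desaturase of the same family, did not share this spread. It was at 260.3, 221 and 167.0 CPM in DHT and 252, 301 and 279 CPM in control, where the highest control was 1.19-fold the lowest (log2 fold change -0.36 ± 0.18, edgeR adjusted p = 0.254). Without DHT replicate 3 the value for Scd2 was -0.20. Fads1 and Fads2 encode the desaturases that make arachidonate and other polyunsaturated fatty acids, and they lie near each other on chromosome 19. Fads1 was at 72.6, 93.8 and 95.5 CPM in DHT and 130.0, 147 and 109 CPM in control. Fads2 was at 77.7, 80.2 and 93.6 CPM in DHT and 115, 146 and 108 CPM in control. Each DHT library lay under each control for both genes. The log2 fold change was -0.56 ± 0.16 for Fads1 (edgeR adjusted p = 0.0805) and -0.55 ± 0.15 for Fads2 (adjusted p = 0.0735). With no low-count filter both passed, Fads1 at an adjusted p of 0.0473 and Fads2 at 0.0452.

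The members that lead to glycerolipids differed from each other. Gpam, which starts glycerolipid synthesis at mitochondria, was at 107 to 142 CPM in DHT and 93.9 to 140.1 CPM in control, with overlap and a log2 fold change of 0.11 ± 0.17 (edgeR adjusted p = 0.740). Pnpla3, a lipid droplet protein that SREBP and ChREBP induce in liver, had 3, 5 and 5 counts in DHT and 6, 70 and 34 in control. Control replicate 1 was again near the DHT libraries, at 0.369 CPM against 0.188 to 0.313 CPM, while the other controls were at 3.63 and 1.68 CPM. With no low-count filter, Pnpla3 had a log2 fold change of -2.81 ± 0.72 (edgeR adjusted p = 0.0488), and without control replicate 1 it was tested and passed at -3.29 (adjusted p = 0.0279). It missed the threshold in the 3 fits without a DHT library (adjusted p = 0.115 to 0.239).

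The controls differed widely among themselves for a few members. The ratio of the highest to the lowest control was 9.84 for Pnpla3, 8.70 for Scd1, 3.84 for Thrsp, 3.57 for Cyp51, 2.33 for Fasn and 2.14 for Elovl6, and under 2 for the other members. In each of these 6 genes control replicate 1 was the lowest control and control replicate 2 the highest.

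Most listed markers of fat cells, which express the fatty acid arm strongly, were also highest in control replicate 2. Summed over 10 white fat cell markers the level was 64.0 to 149 CPM in DHT and 61.0 to 127 CPM in control, and 0 of the 4 markers tested were called. Fabp4, which endothelium also expresses, was 116 CPM of that sum in DHT replicate 2. Pparg was highest in DHT replicate 2 as well, at 2.32 CPM against 1.25 CPM in control replicate 2. Aqp7 was lower in DHT without overlap, at 11.1 to 11.8 CPM against 13.9 to 24.0 CPM. Of the markers highest in control replicate 2, Adipoq, the gene of adiponectin, was at 2.85 CPM there. It was at 0.148 CPM in control replicate 3 and 0 in control replicate 1, and at 0 to 0.188 CPM in DHT. Plin1 was at 2.28 CPM and Cfd at 12.04 CPM in control replicate 2. Plin1 was at 0.0989 CPM in control replicate 3, and at 0 in control replicate 1 and all DHT libraries. Cfd was at 0 in control replicate 1 and in DHT replicates 1 and 3. The brown fat gene Ucp1 was at 4.82 CPM in control replicate 2, 0.396 CPM in control replicate 3 and 0 in the other libraries.

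Without control replicate 2 the log2 fold change of Elovl6 was -1.30 (edgeR adjusted p = 0.149), that of Fads2 -0.41 (adjusted p = 0.218) and that of Fads1 -0.46 (adjusted p = 0.242). Only 0.0446% of all genes passed there, against 0.571% without control replicate 3. Scd1 was at 1251 CPM in control replicate 3, against at most 332 CPM in DHT. Fat cell markers were mixed in that library. Adipoq was at 0.148 CPM, against at most 0.188 CPM in DHT, and Cidec, Fabp4, Lipe and Pparg also lay inside the DHT range. Cfd was at 1.29 CPM there, against at most 0.063 CPM in DHT, and Plin1, Retn, Aqp7, Ucp1 and Cidea also lay above every DHT library. The adrenal markers Cyp11a1 and Hsd3b1 stood out in control replicate 3, at 6.33 and 6.48 CPM against at most 0.311 CPM elsewhere. The other adrenal markers did not stand out there. Star was at 2.47 CPM, against 2.49 CPM in control replicate 2, Akr1b7 was at its lowest, 2.08 CPM, and Mc2r was at 0. Cyp11b1 and Cyp11b2 were at 0 in all libraries. Over 7 adrenal markers the sum was 6.72 to 13.3 CPM in DHT and 5.86 to 17.4 CPM in control, and 1 of the 2 tested, Akr1b7, was called higher in DHT (edgeR adjusted p = 0.0418). The part of fat and adrenal RNA in the members' values was not tested further.

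**Figure D4:**
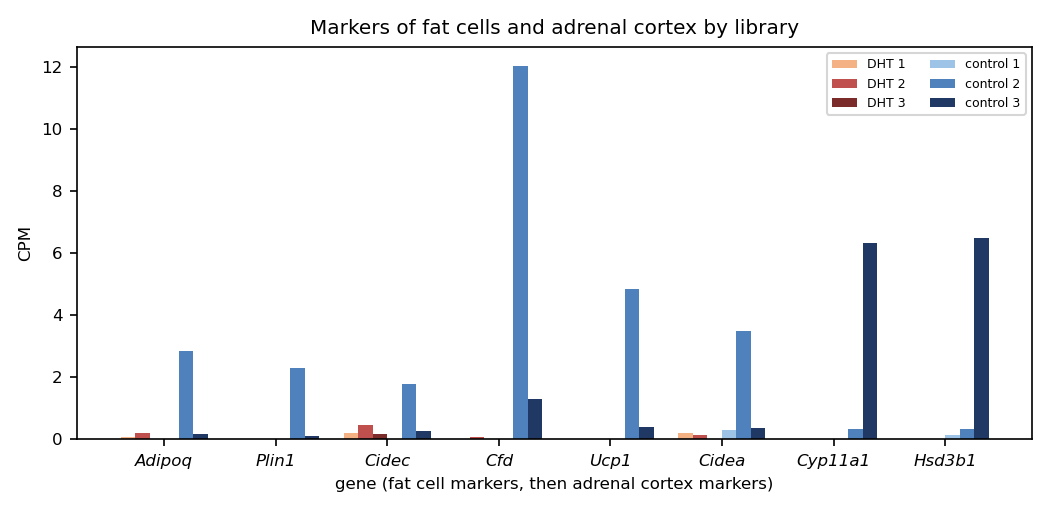
Bars are CPM by library for 6 fat cell markers (Adipoq to Cidea) and 2 adrenal cortex markers. Control replicate 2 is highest for the 6 fat cell markers shown, with Cfd at 12.04 CPM. Control replicate 3 is highest for the 2 adrenal markers shown, at 6.33 and 6.48 CPM, which other adrenal markers did not share.

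Per kilobase of exon, which allows genes to be ranked, the order at the top differed between the groups. In DHT the mean levels were 169 CPM per kb for Hmgcs1, 129 for Me1, 55.9 for Cyp51 and 51.8 for Scd1. In control they were 276 CPM per kb for Scd1, 95.96 for Hmgcs1, 73.2 for Cyp51 and 73.03 for Me1. The first place of Scd1 in control rests on replicates 2 and 3, since its CPM in control replicate 1 lay inside the DHT range. The least abundant by the mean of 6 libraries were Pnpla3 (0.698 CPM per kb), Thrsp (1.21), Acaca (1.23) and Lss (2.60). Lengths count every annotated exon, so a gene with many rare exons ranks too low on this scale.

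Other genes of these pathways formed a list of 55, of which 50 were tested. At the adjusted threshold 1 was higher in DHT and 0 lower, or 2%, which is near the 2.84% of all genes. The called gene was Cyb5r3, a reductase that passes electrons to sterol and fatty acid desaturases by way of cytochrome b5. It was at 198, 144 and 211 CPM in DHT and 110, 115 and 97.6 CPM in control, without overlap. Cyb5r3 rose by a log2 fold change of 0.78 ± 0.16 (edgeR adjusted p = 0.0453). The call was lost with limma-voom (adjusted p = 0.0535), with the replicate number as a block (0.105), and without each library except DHT replicate 2 (0.0767 to 0.154).

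The 5 genes next to it by p missed the threshold. Acat1, the mitochondrial thiolase of ketone body metabolism, was at 944, 604 and 864 CPM in DHT and 447, 443 and 446 CPM in control, a log2 fold change of 0.85 ± 0.19 (edgeR adjusted p = 0.0515). Elovl2, an elongase of polyunsaturated fatty acids, was at 31.5, 46.2 and 35.1 CPM in DHT and 74.5, 129.95 and 66.6 CPM in control (-1.26 ± 0.27, adjusted p = 0.0546). Dgat2, which completes triglyceride synthesis, was at 160.0, 158 and 214 CPM in DHT and 127, 116 and 97.0 CPM in control. Acsl1, which activates fatty acids, was at 120.4, 352 and 167 CPM in DHT and 596, 737 and 539 CPM in control. Cyp7b1, an oxysterol hydroxylase, was at 46.4, 9.52 and 49.9 CPM in DHT and 2.58, 4.41 and 5.94 CPM in control. Groups did not overlap for any of the 5, against 29.8% of all genes without overlap. These 5 were picked by small p in the same libraries, so their separation follows largely from that choice. DHT replicate 2 was the DHT library nearest the controls for all 5, by a narrow margin in Dgat2.

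SREBP processing genes showed no member past the threshold among 7 tested, where 2.84% of all genes passed, with a median log2 fold change of 0.01. Scap, the escort that senses sterols, was at 72.5, 63.8 and 94.3 CPM in DHT and 76.1, 91.6 and 98.5 CPM in control. Insig2, which like Insig1 retains SREBPs, was at 59.3, 48.7 and 54.9 CPM in DHT and 58.1, 50.2 and 51.0 CPM in control. The groups overlapped for Scap and Insig2. Rnf145 was the 1 gene of the 7 without overlap, a share under the 29.8% of all genes. It was at 140, 94.9 and 124 CPM in DHT and 76.1, 93.4 and 82.5 CPM in control, so DHT replicate 2 and control replicate 2 nearly met. Its log2 fold change was 0.51 ± 0.16 (edgeR adjusted p = 0.108).

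**Figure D5:**
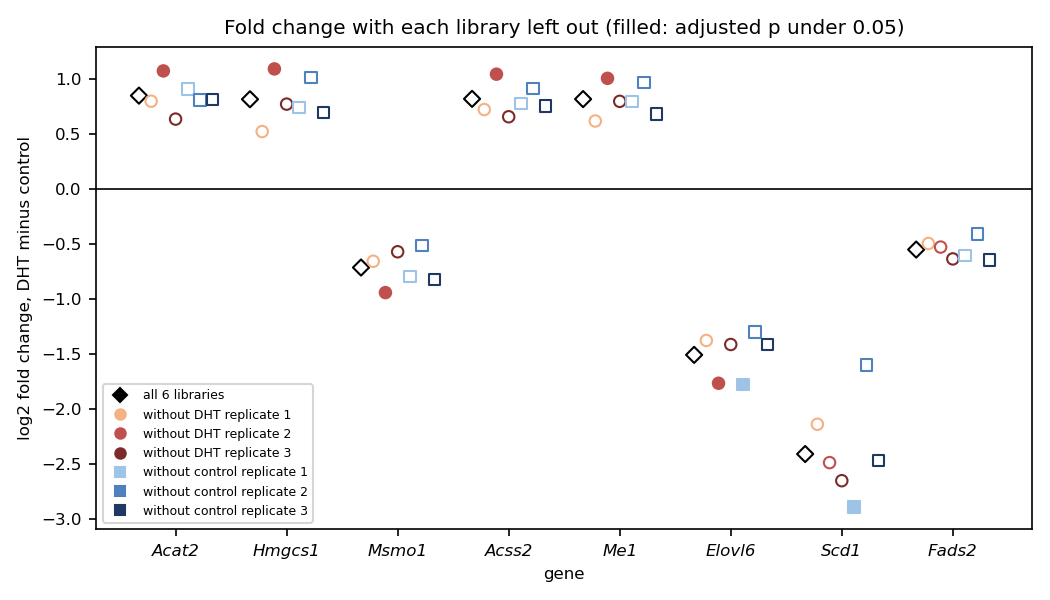
Log2 fold changes of 8 members with all 6 libraries (diamonds) and with each library left out (circles for DHT, squares for control); filled symbols passed an adjusted p of 0.05. Signs hold throughout for these 8 genes, and filled symbols occur without DHT replicate 2 for Acat2, Hmgcs1, Msmo1, Acss2, Me1 and Elovl6 and without control replicate 1 for Elovl6 and Scd1.

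Some members share sequence with other gene models, and whether reads were shared was not tested. Exonic bases were shared with another gene model by 15 of 39 members, 11 of them on the opposite strand and 4 over at least 10% of their exonic bases. These 4 were Fdps (26.7%, Gm43738) and Tm7sf2 (12.1%, Vps51) on the same strand, and Fdft1 (18.3%, Ctsb) and Hmgcs1 (12.1%, Gm48342) on the opposite strand. A transcript at least 95% identical over at least 50% of the length existed for 3 members, Acat2, Fdps and Acaca. Me1 has a pseudogene, Gm7049, 98.5% identical over 49.8% of its transcript, which held 43 counts. The sources used here do not say how such reads were counted.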

How the data were processed

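The authors deposited raw counts per gene symbol for 6 kidney libraries (whole numbers, no normalization). HISAT2 2.0 and the build mm10 were used, per the submitters' processing notes; the counting tool, annotation and strand setting, not given in the sources used here, are unknown. Columns were matched to samples by title. The test was edgeR 4.0.16 (R 4.3.3): filterByExpr (minimum count 10, minimum total 15) kept 15367 of 46095 rows, followed by TMM scaling, a robust quasi-likelihood fit on the group and Benjamini-Hochberg adjustment over all genes tested, called at 0.05. SE is the value the F statistic implies. Log2 CPM per library used a prior count of 2. The 14 alternatives were other scalings, filters, DESeq2 1.42.0, limma 3.58.1 (voom), no robust step, a replicate block and each library left out. The procedure was run on simulated data with the same dispersion for every gene. That run does not cover spread that differs between genes or libraries, as it does here.

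Gene models were GENCODE M21 (GRCm38, the assembly of mm10), with bedtools 2.31.1 and BLAST 2.17.0 for shared exons and similar transcripts. The members and lists were chosen with earlier results of these data known. Every member was named; of the other pathway genes, called ones and the next 5 by p were named. Marker genes, promoters to print and shared-read partners named in the text were chosen after values were seen.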

Additional observations from a re-analysis of the deposited data

How the results depend on the processing

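Of 38 members tested, 11 passed the adjusted threshold in at least 1 of 14 alternatives and 27 in none; 31 kept their sign in all. Leaving out 1 library gave 0 to 1224 called genes (0 to 745 higher, 0 to 479 lower) against 437, 212 and 225, with 0 without DHT replicate 3 and 1224 without DHT replicate 2. Sterol members called ranged over 0 to 2 higher and 0 to 1 lower, fatty acid members 0 to 2 higher and 0 to 4 lower, and other pathway genes 0 to 9 higher and 0 to 2 lower. The arm medians ranged from -0.23 to -0.02 (sterol) and from -0.54 (without control replicate 1) to -0.27 (fatty acid), and their difference from 0.14 to 0.39. The cause of these shifts was not tested.

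With DESeq2 1634 genes were called (854 higher, 780 lower), with 1 and 1 sterol, 2 and 5 fatty acid and 6 and 3 other pathway genes higher and lower. With no low-count filter there were 852 (418 and 434), with 1 fatty acid member higher, 3 lower and 4 other genes higher. Total counts gave 132 genes higher, 1 fatty acid member lower and 2 other genes higher, and moved the median of all genes to -0.10; against it the arm medians were -0.21 and -0.46. Limma-voom gave 0 other genes higher. No robust step gave 1 fatty acid member lower (Elovl6) and 2 other genes higher and 1 lower.

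Samples with the same replicate number correlated at 0.07, -0.15 and 0.04 in their deviations from the group means, and of the 3 DHT libraries only replicate 1 correlated best with its own number. The replicate block gave 85 genes (36 higher, 49 lower), 1 fatty acid member lower (Elovl6, -1.47, adjusted p = 0.0450), 0 other genes higher and 1 lower (Elovl2). Signs changed in some fits for Sqle (0.013 with limma-voom, 0.014 with the replicate block, -0.19 to 0.24 without 1 library), Dhcr7 (0.0016 with the block, -0.17 to 0.073 without 1 library) and Thrsp (0.010 with limma-voom, -0.52 to 0.30 without 1 library). Leaving out 1 library also changed the sign for Ebp (-0.18 to 0.11), Cyp51 (-0.76 to 0.020), Idi1 (-0.014 to 0.49) and Gpam (-0.030 to 0.26).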
